A study of Selaginella kraussiana with 4 samples.

Results

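The microphyll and the shoot tip of the lycophyte *Selaginella kraussiana* were compared, which sets the leaf against the apex that forms leaves. Total RNA was sequenced from 4 tissues with 1 library each, and the 2 libraries described here are those of the microphyll and the shoot tip. The deposited labels call them leaf and seedling. Here the leaf label is read as the microphyll, and the seedling label is read as the shoot tip, since the study's methods list that tissue and no other label remained for it. Whether the seedling RNA came from more than the tip cannot be told from the labels. All plants were grown under long days in a greenhouse or chamber, and the labels give no genotype, treatment or plant age that differs between the libraries.

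A microphyll is the small leaf of lycophytes, usually supplied by an unbranched vein, and it arises on the flank of the shoot apex. The mature organ is mainly photosynthetic. The shoot tip holds the apical meristem, young internodes and the microphylls that are still forming, so the shoot tip sample contains leaf cells at an early stage by its anatomy. In RNA from whole organs, fewer cells of a type and less RNA per cell cannot be told apart.

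The deposited tables list loci that Cufflinks assembled on the authors' draft contigs, each with an FPKM, a fragment count scaled by transcript length in kilobases and by library size in units of 1000000 fragments. Each FPKM has a pair of bounds, which are taken as its 95% interval. They carry 0 gene names, so no pathway or tissue marker could be matched to a locus, and the label of neither library could be checked against marker genes. Wherever loci of the 4 libraries shared 1 bp or more of a contig they were joined, which gave 31210 merged loci. Of these, 26055 were at least 300 bp long, and the 22563 that also had an FPKM of at least 1 in the microphyll or the shoot tip were compared. The microphyll listed 21101 of them and the shoot tip 21322. A locus that a library did not list has an FPKM of 0 there, which does not show that reads were absent. The number of fragments behind a value was derived from its interval, taken as 2 Poisson standard deviations on each side. It is an implied number and not a count, and is an understatement where the interval holds other variance. All fragment numbers below are of this kind. The median listed locus rested on 275 fragments in the microphyll, against 336 in the shoot tip. With 1 library per tissue no difference has a replicate check. No p-value is given, and the intervals cover the error within a library and not the variation between plants.

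On the FPKM scale, more loci were higher in the shoot tip than in the microphyll. At a difference of at least 2 in log2(FPKM + 1), about 4-fold, 1275 merged loci (5.65%) were higher in the microphyll and 1867 (8.27%) were higher in the shoot tip. The pseudocount of 1 compresses the differences of low loci. The difference, microphyll minus shoot tip, had a median of -0.035 and quartiles of -0.91 and 0.76, and 12830 loci (56.9%) differed by less than 1. The Spearman correlation between the libraries was 0.762 across the 22563 loci, which are not replicates and share the reads' alignment to the same contigs. The excess in the shoot tip depended on the scaling. With FPKM rescaled to TPM, that is divided by its sum over all loci of the library, 1318 loci were higher in the microphyll, against 464 in the shoot tip, and the median difference moved to 0.60. The filter at 1 was then applied to TPM, which changes the set of loci compared. The sums shift every difference by 0.79 before the pseudocount. The locus with the highest FPKM, 92 bp long in each library, held 33.4% of that sum in the microphyll, against 52.2% in the shoot tip. Over listed loci of at least 300 bp the sums were close, 951485 in the microphyll against 946902 in the shoot tip. Over merged loci of at least 300 bp they were 1.108e+06 in the microphyll against 1.133e+06 in the shoot tip. With these merged loci scaled to equal sums the numbers were 1312 for the microphyll and 1829 for the shoot tip.

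**Figure D1:**
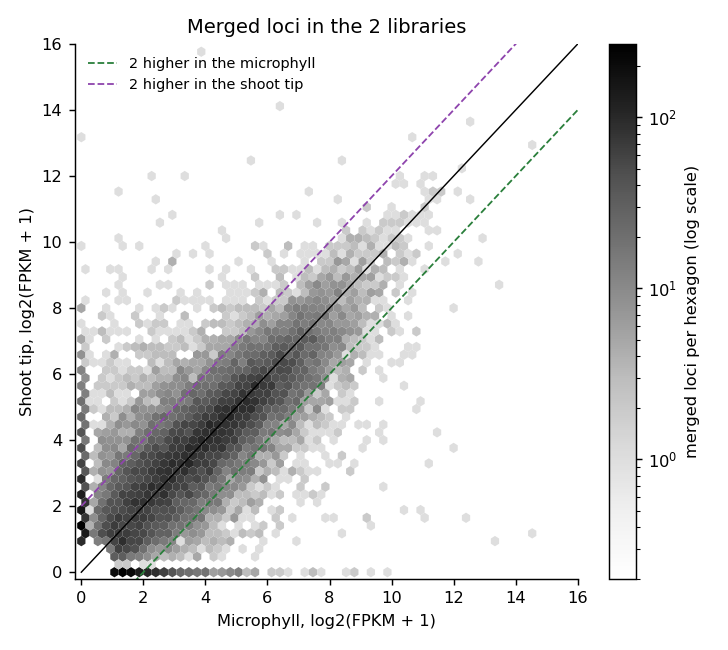
Level of the 22563 merged loci as log2(FPKM + 1) in the microphyll (horizontal axis) and the shoot tip (vertical axis), 1 library each, with shade for the number of loci per hexagon on a log scale. The solid line marks equal levels and the dashed lines a difference of 2, beyond which lie 1275 loci toward the microphyll and 1867 toward the shoot tip, and loci on an axis were not listed in the other library.

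The largest differences toward the microphyll were at short loci. Among loci with 1 locus in each library and intervals that did not overlap, the 8 with the highest difference all had a microphyll locus of 92 bp to 184 bp, set against a shoot tip locus of 350 bp to 1299 bp. The highest was on contig 044188 (1 to 404), with an FPKM of 22324 (interval 7910 to 36738) over 92 bp in the microphyll and 1.27 (0.607 to 1.93) over 403 bp in the shoot tip. The intervals implied 9.59 fragments in the microphyll, against 14.7 in the shoot tip. The library with the higher FPKM thus had the lower implied number, as in 4 of the 8 loci, this one included. Whether the true counts were ordered alike cannot be told from the bounds. FPKM divides by a length corrected for the size of the fragments, which is very small for a locus near 100 bp, and the part of this in the differences was not tested. The locus on contig 104433 (371 to 799) had 2268 in the microphyll over 113 bp, against 8.64 in the shoot tip over 426 bp, with 144 fragments in the microphyll against 113 in the shoot tip. In the opposite direction, 4 of the 8 lowest loci had a shoot tip locus under 300 bp, such as contig 105176 (1 to 370) with 1.26 in the microphyll over 368 bp and 2685 in the shoot tip over 100 bp.

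The span of the locus moved with the difference. Of the 14450 merged loci with 1 locus in each library, 13918 (96.3%) had spans within 2 times of each other, and of these 403 (2.90%) were higher in the microphyll, against 692 (4.97%) in the shoot tip. In the 132 loci where the microphyll locus was at most 1/3 as long as that of the shoot tip, 54 were higher in the microphyll, against 15 in the shoot tip. In the 68 where it was at least 3 times as long, 1 was higher in the microphyll, against 32 in the shoot tip. The counts are therefore also given for the 21191 merged loci, called long-span loci below, in which every locus that either library listed was at least 300 bp long, a set chosen after the values had been seen. Of these, 1034 (4.88%) were higher in the microphyll, against 1624 (7.66%) in the shoot tip.

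**Figure D2:**
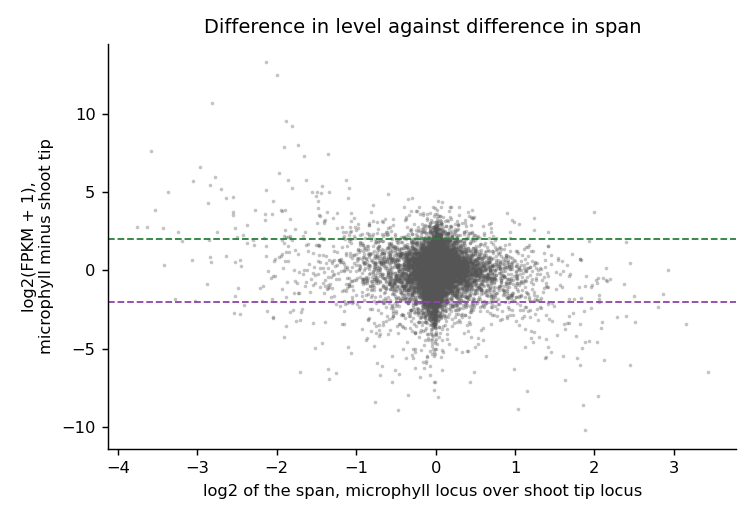
Difference in log2(FPKM + 1), microphyll minus shoot tip, against log2 of the span of the microphyll locus over that of the shoot tip locus, for the 14450 merged loci with 1 locus in each library (1 point per locus). Points far to the left, where the microphyll locus is shorter, lie mostly above 0 and reach 13.27, and those to the right lie mostly below 0, while 96.3% of loci have spans within 2 times of each other. Dashed lines mark a difference of 2 in either direction.

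Among long-span loci listed in both libraries, large differences were mostly toward the shoot tip. Of 18624 such loci, 4 were higher in the microphyll by at least 5 on the log2(FPKM + 1) scale and 68 were higher in the shoot tip. These numbers were 4 and 66 with equal sums over merged loci of at least 300 bp, 4 and 59 with median-of-ratios factors, and 5 and 13 with TPM. They were 13 and 97 with a pseudocount of 0.1, and 0 and 20 with a pseudocount of 5. The highest difference was 5.43 and the lowest -8.94. Toward the microphyll 244 long-span loci passed a difference of 3, and toward the shoot tip 670 did, counting those listed in 1 library.

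**Figure D3:**
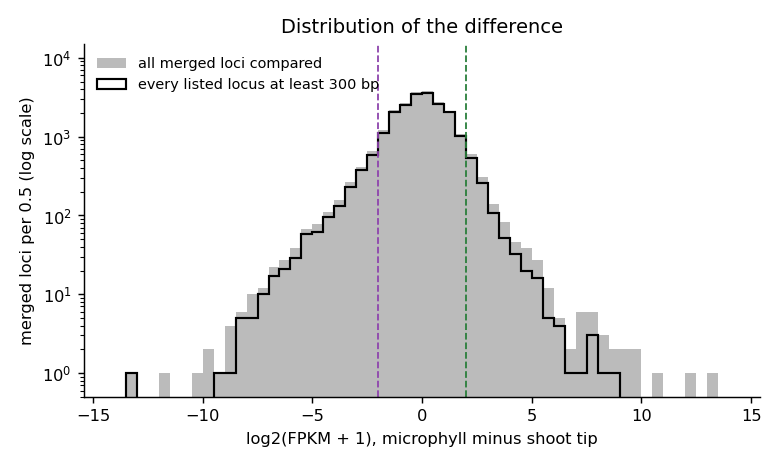
Number of merged loci (log scale) by their difference in log2(FPKM + 1), microphyll minus shoot tip, in steps of 0.5. The grey histogram holds all 22563 loci and the black outline the 21191 long-span loci, whose right tail ends at 8.70 where the grey one reaches 13.27, and dashed lines mark a difference of 2 in either direction.

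The 8 long-span loci with the highest and the 8 with the lowest difference are described below by their values in all 4 libraries. They were chosen after the values had been seen, by the same conditions of 1 locus in each library and intervals apart. The ratios given with them are without a pseudocount.

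The leading locus of the microphyll, on contig 099179 (2851 to 6426), had an FPKM of 406 (interval 373 to 440) in the microphyll and 8.47 (6.69 to 10.2) in the shoot tip, a log2 ratio of 5.58 (5.26 to 5.91). The rhizophore tip had 244 and the stem 16.4. Its microphyll locus spanned 384 bp and its shoot tip locus 2753 bp, and whether both hold the same transcript was not tested. Contig 052269 (562 to 7474) held a locus with 85.9 (81.4 to 90.4) in the microphyll and 2.56 (2.09 to 3.02) in the shoot tip, a log2 ratio of 5.07 (4.80 to 5.34), over spans of 5542 bp and 6811 bp in the same order. The rhizophore tip had 9.60 and the stem 20.1, so the microphyll was the highest of the 4 and the shoot tip the lowest.

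That on contig 058286 (1743 to 3652) had the most implied fragments of these 8. It had 336 (327 to 346) in the microphyll from 5074 fragments and 19.1 (17.8 to 20.4) in the shoot tip from 873 fragments. The microphyll was 17.6 times higher, and the stem at 329 (318 to 339) had an interval that overlapped that of the microphyll. The rhizophore tip had 100. On contig 041439 (1 to 390) the level was 149 in the microphyll, against 6.37 in the shoot tip, but the stem at 333 was above both and the rhizophore tip had 97.8. By contrast, the locus on contig 093841 (2 to 501) had 38.3 in the microphyll, against 1.36 in the shoot tip, with the stem at 1.54, and was not listed in the rhizophore tip. It was high in the microphyll alone, and its shoot tip value rested on 11.9 fragments.

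The other 3 were on contigs 050132 (3 to 351), 080831 (2080 to 3496) and 095056 (3796 to 4799). They had 45.8, 155 and 81.9 in the microphyll and 1.19, 8.53 and 4.09 in the shoot tip, in the same order, and the stem stood between the 2 tissues in each.

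Toward the shoot tip, the locus on contig 102948 (1695 to 2316) had the largest difference, with 1.22 (0.568 to 1.87) in the microphyll and 1093 (1077 to 1109) in the shoot tip, a log2 ratio of -9.81 (-10.58 to -9.03). The microphyll value rested on 14.0 fragments and that of the shoot tip on 19084. The rhizophore tip had 44.2 and the stem 1.48. At the locus on contig 103619 (1 to 979) the level was 1.56 (1.12 to 2.00) in the microphyll and 509 (501 to 516) in the shoot tip, over spans of 965 bp and 979 bp, and a log2 ratio of -8.35 (-8.76 to -7.94). The rhizophore tip had 1.98 and the stem 1.74, so it was high in the shoot tip alone.

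Contig 044881 (1310 to 2029) showed the same pattern, with 2.51 in the microphyll against 969 in the shoot tip, while the rhizophore tip had 1.49 and the stem 1.43. That on contig 099574 (589 to 1346) had 0.536 in the microphyll against 216 in the shoot tip, with the stem at 1.96, and was not listed in the rhizophore tip. A further locus, on contig 072163 (1212 to 2549), had 0.872 in the microphyll against 622 in the shoot tip, while the rhizophore tip had 28.7 and the stem 1.31.

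The last 3 of the 8, like those on contigs 102948 and 072163, were also well above the microphyll in the rhizophore tip. On contig 073621 (1 to 737) the level was 0.662 (0.341 to 0.983) in the microphyll, against 234 (222 to 245) in the shoot tip. The rhizophore tip had 243 (232 to 255), which overlapped the interval of the shoot tip, and the stem 8.97. Contig 043055 (1 to 1112) had 0.687 in the microphyll against 236 in the shoot tip, while the rhizophore tip had 86.1 and the stem 14.6. Contig 105509 (1 to 1288) had 1.16 in the microphyll against 302 in the shoot tip, where the rhizophore tip stood at 46.2 and the stem at 2.87.

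**Figure D4:**
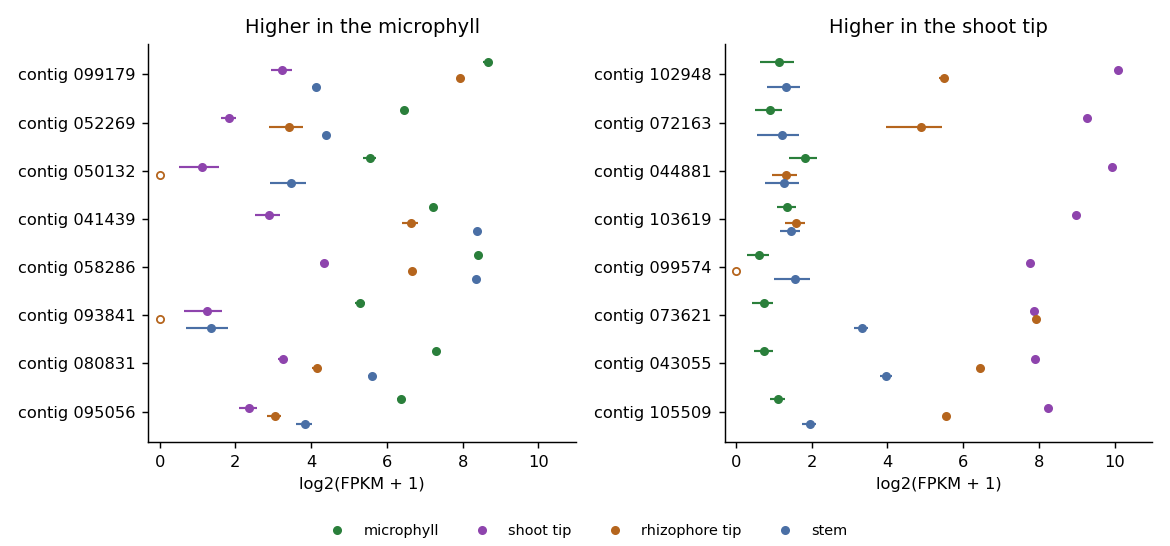
Level as log2(FPKM + 1) in the 4 libraries for the 8 long-span loci with the highest difference (left) and the 8 with the lowest (right), 1 point per library, with lines for the interval from the deposited bounds and open circles for loci not listed. The shoot tip is the lowest listed tissue in all 8 loci on the left, and the highest microphyll level on the right is 2.51 FPKM.

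The other 2 tissues, whose values did not enter the choice of the loci, stood differently beside the 2 sets. The 1275 loci higher in the microphyll had a median FPKM of 26.9 in the microphyll, against 2.35 in the shoot tip, and the rhizophore tip had 4.77 and the stem 8.29. The 1867 loci higher in the shoot tip had medians of 1.14 in the microphyll, against 22.3 in the shoot tip, and the rhizophore tip had 17.6 and the stem 6.98. Over all 22563 loci the medians were 10.4 in the microphyll, against 12.2 in the shoot tip, while the rhizophore tip had 12.4 and the stem 10.9.

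Each locus was further asked on which side of the midpoint between microphyll and shoot tip another tissue lay, on the log2(FPKM + 1) scale. The rhizophore tip lay on the side of the microphyll in 341 (26.7%) of the loci higher in the microphyll, and on the side of the shoot tip in 1461 (78.3%) of the loci higher in the shoot tip. The stem did so in 526 (41.3%) of the loci higher in the microphyll and in 966 (51.7%) of those higher in the shoot tip. Over all loci, the rhizophore tip lay on the side of the higher of the 2 tissues in 50.8% and the stem in 43.4%. With the levels rescaled to TPM and the same 1275 and 1867 loci, the rhizophore tip lay on the higher side in 14.0% of the loci higher in the microphyll, against 68.9% of those higher in the shoot tip, and the stem in 46.7% of the first set, against 58.3% of the second. The shares over all loci were not taken with TPM. Those given above are on the FPKM scale and are no baseline for the TPM shares.

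The called loci were also compared with each of the other tissues on the FPKM scale. The shares over all loci and the values with TPM were not taken for this comparison, so the numbers have no baseline. In 603 (32.3%) of the 1867 loci, the microphyll was lower by at least 2 than each of the other 3 tissues, and in 233 (12.5%) the shoot tip was higher by at least 2 than each of them. In the microphyll set, the microphyll was higher by at least 2 than each other tissue in 442 (34.7%) of 1275 loci. The shoot tip was lower by at least 2 than each in 140. Among long-span loci these numbers were 349 and 101 of 1034 for the microphyll set, and 550 with the microphyll lowest and 169 with the shoot tip highest of 1624 for the shoot tip set. In 759 of the 1867 loci higher in the shoot tip, the rhizophore tip exceeded the shoot tip itself.

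**Figure D5:**
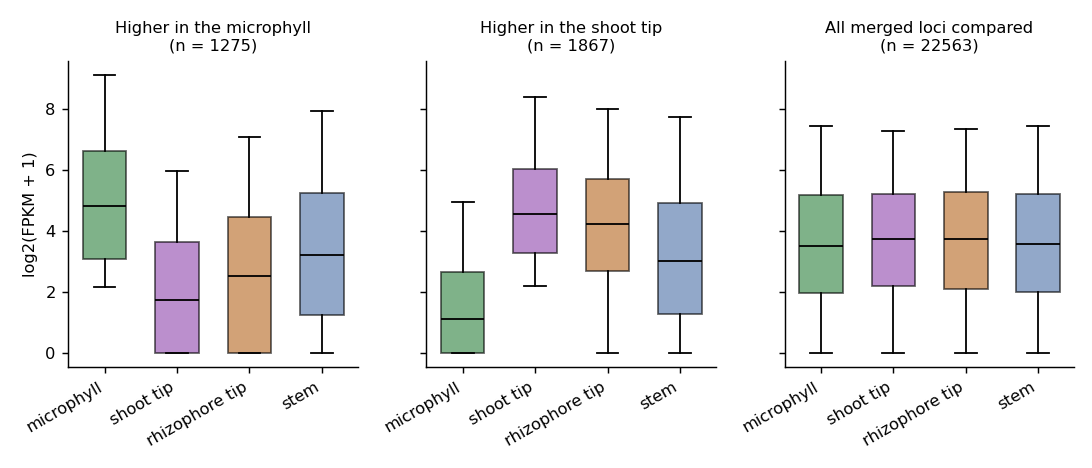
Level as log2(FPKM + 1) in the 4 libraries for the 1275 loci higher in the microphyll, the 1867 higher in the shoot tip and all 22563 loci, with boxes for the quartiles, lines for the medians and whiskers from the 5th to the 95th percentile of loci. In the middle panel the rhizophore tip (median 17.6 FPKM) lies near the shoot tip (22.3), and in the left panel both other tissues lie between the microphyll and the shoot tip.

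Of the compared loci, 19860 (88.0%) were listed in both libraries, 1241 in the microphyll and not the shoot tip, and 1462 in the shoot tip and not the microphyll. Most had low levels, with a median FPKM of 2.12 from 25.8 fragments in the microphyll and 3.04 from 43.2 fragments in the shoot tip. Their median merged length was 447 bp for those of the microphyll and 578.5 bp for those of the shoot tip. Of the loci of the microphyll, 675 (54.4%) were listed in neither the rhizophore tip nor the stem, against 277 (18.9%) of those of the shoot tip. The share over all compared loci was not taken for this count. The rhizophore tip listed 344 (27.7%) of the 1241 loci, against 1097 of the 1462. Of all 22563 compared loci it listed 20301, a larger share than in either group. The stem listed 420 (33.8%) of the 1241 loci and 784 (53.6%) of the 1462, and 20248 of all 22563.

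The 4 loci of the microphyll resting on the most fragments were on contigs 103823 (1 to 805), 087360 (1 to 653), 048512 (1 to 1042) and 102154 (2 to 823), with an FPKM of 222 (217 to 228), 155 (150 to 161), 51.6 (49.4 to 53.7) and 337 (323 to 351) in that order. The first was also listed in the rhizophore tip at 89.9, and the other 3 in no other library. The 4 of the shoot tip were each listed in the rhizophore tip and the stem. They were on contig 047042 (697 to 1644), with 559 (551 to 566) in the shoot tip, where the rhizophore tip had 985 and the stem 317, on contig 103473 (1870 to 4548), with 41.5 against 35.8 and 1.13 for the same tissues, and on contig 087358 (1 to 873), with 115 against 109 and 140. The last, on contig 103377 (15 to 9296), had 10096 in the shoot tip from 2 loci, while the rhizophore tip had 1033 and the stem 3072, and was not listed in the microphyll. No fold is given for these loci. Every locus in the tables has the status OK, so whether a locus was missing for lack of reads or because its estimate failed was not tested.

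The most abundant loci were partly shared. Among the 21191 long-span loci, the 100 highest had a median FPKM of 1240 in the microphyll, against 1275 for the 100 highest in the shoot tip, and 50 loci were in both lists. Of the 100 highest in the microphyll, 58 differed by less than 1 between the libraries and 18 were higher in the microphyll by at least 2. Of the 100 highest in the shoot tip, 52 differed by less than 1 and 16 were higher there by at least 2. The 100 of the microphyll had a median FPKM of 225 in the rhizophore tip, against 771 in the stem, and for the 100 of the shoot tip the rhizophore tip had 815 and the stem 784.

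By mean FPKM of the 2 libraries, the locus on contig 063554 (2054 to 2573) was the highest among long-span loci, with 25767 (24700 to 26835) in the microphyll and 7692 (7370 to 8014) in the shoot tip, 3.35 times higher in the microphyll. The rhizophore tip had 2002 and the stem 22049. The next was that on contig 103377, given above. Contig 089110 (4 to 4128) had 7872 (7544 to 8201) in the microphyll and 1081 (1035 to 1126) in the shoot tip, where the rhizophore tip had 229 and the stem 2545. That on contig 045971 (269 to 1320) had 4958 (4748 to 5167) in the microphyll and 4422 (4236 to 4609) in the shoot tip, where the rhizophore tip had 190 and the stem 1662. All 3 were lowest in the rhizophore tip and highest in the microphyll. With spans under 300 bp included, the highest mean belonged to contig 050869 (9 to 1194), with 14.4 (13.3 to 15.4) in the microphyll and 59957 (54733 to 65182) in the shoot tip, where 1 of its 2 loci spanned 100 bp. Contig 054616 (22 to 432), at 6372 in the microphyll, against 13202 in the shoot tip, rested on loci of 112 bp and 122 bp.

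The smallest differences were also named. Contig 063650 (3158 to 5240) had 134 (127 to 142) in the microphyll and 134 (128 to 141) in the shoot tip, with a log2 ratio between -0.10 and 0.10. It was chosen as 1 of the 2 smallest differences at a mean FPKM of at least 100. The other, on contig 059422 (2 to 4034), had 130 in both libraries, over 4020 bp in the microphyll and 531 bp in the shoot tip.

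The balance between the tissues varied with level, among loci with a mean FPKM of at least 3, and with length. Loci with a lower mean were in no class of level, so the trend is not described for them. For loci with a mean FPKM from 3 to under 10, 5.21% were higher in the microphyll, against 9.54% in the shoot tip, and from 100 to under 300 these shares were 9.53% and 7.75%. Among long-span loci they were 4.73% and 9.37% in the lower class and 7.68% and 6.56% in the higher. At a mean FPKM of 300 or more, the shares were 12.6% for the microphyll against 11.5% for the shoot tip, and among long-span loci 7.91% against 8.37%, with a median difference of -0.12. Loci from 300 bp to under 600 bp were higher in the microphyll in 7.95% and in the shoot tip in 9.53%, and loci from 2400 bp to under 4800 bp in 4.09% and 8.11%. In the class from 2400 bp the median difference was -0.15.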

How the data were processed

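Each of the 4 tissues gave 1 paired-end RNA library. The authors removed 10 bases from the read starts, ran TopHat 2.0 against draft contigs that ABySS had assembled from genomic DNA, and quantified loci with Cufflinks 2.1. The authors deposited FPKM values per locus and library, together with bounds in that unit. The study's methods give read totals per library, which were not used here, and the mapped fragments per locus and the strand setting are not given in the sources used here. Positions are on the authors' draft contigs, counted from 1, and no genome sequence was used here.

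Overlapping loci of the 4 libraries were merged with Python 3.11.15 and pandas 2.3.3, and FPKM was summed per library within a merged locus. Squared standard deviations of summed loci were added. The interval of a ratio was taken as 2 standard errors, with independent errors in the 2 libraries. Calls were tested on simulated libraries, in which each locus had nearly the same span in every library. That test does not cover the differences in span described above. No test between tissues was made.

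The loci compared and the rules were chosen with earlier results of these data known. The loci named were, among those with 1 locus in each library and intervals apart, the 8 highest and 8 lowest differences. They were also the 4 per direction listed in 1 of the 2 libraries with the most fragments, the 4 with the highest mean FPKM, and the 2 smallest differences at a mean FPKM of at least 100. The long-span loci were added after seeing the data. Alternatives were the pseudocount, the scaling, the filters on level and length, the treatment of unlisted loci, the merging and the size of the difference.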

Additional observations from a re-analysis of the deposited data

How the results depend on the processing

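The counts depended most on the pseudocount, the scaling and the size of the difference. Given as loci higher in the microphyll and loci higher in the shoot tip, the reported counts were 1275 and 1867. A pseudocount of 0.1 gave 2389 and 3007 and one of 5 gave 534 and 817. They were 4493 and 5240 at a difference of at least 1, 376 and 801 at a difference of at least 3, 847 and 1129 over loci listed in both libraries, and 1318 and 464 with TPM. With TPM over long-span loci, chosen after seeing the data, they were 1089 and 369. Without a length minimum they were 2478 and 2690, and from 600 bp 771 and 1263. The shoot tip had more under each of the 19 settings except both with TPM. Equal sums, median-of-ratios factors, an FPKM of at least 10, no filter on FPKM, unlisted loci set at 10 fragments, at most 1 locus per library, merging over the 2 libraries, contigs as the unit, intervals apart and long-span loci each left both counts within 1.5 times. Intervals apart could hardly act on the 428 and 738 called loci that the other library did not list. An unlisted locus has bounds of 0 and counts as apart wherever the other lower bound is above 0. Lifting the filter on FPKM could not change the counts, since every called locus passes it.

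The median difference was -0.0048 with equal sums, 0.60 with TPM, -0.016 with median-of-ratios factors, -0.015 with an FPKM of at least 10, -0.00031 without a length minimum, -0.077 from 600 bp and -0.080 with at most 1 locus per library. The Spearman correlation was 0.665 with TPM, 0.589 with an FPKM of at least 10, 0.788 with no filter on FPKM, 0.662 without a length minimum, 0.778 from 600 bp, 0.779 over loci listed in both, 0.772 with unlisted loci at 10 fragments, 0.752 with at most 1 locus per library, 0.783 with contigs as the unit and 0.784 over long-span loci. TPM was filtered at 1 and kept the pseudocount of 1, which then weigh more against low loci. The part of these 2 settings in the TPM values, and the causes of the other changes, were not tested. For 29 named loci under 5 alternatives, 144 values kept their side of the difference of 2, and that on contig 063554 passed it with TPM, at 2.53. The loci past 2 kept their direction under all 5. The smallest differences, on contigs 059422 and 063650, were just below 0 as reported and above 0 under the other scalings, at 0.031 each with equal sums, 0.76 each with TPM and 0.019 each with median-of-ratios factors. No paired analysis was possible because there is 1 library per tissue, which also leaves no replicate to omit. In the 8 lowest long-span loci the microphyll value rested on 12.1 to 60.2 implied fragments. In the 8 highest the shoot tip value rested on 9.59 to 873. The part of depth in these differences was not tested.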

Other observations

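Most compared loci were alone on their contig among the 22563, namely 80.5% of those higher in the microphyll, 74.6% of those higher in the shoot tip and 77.7% of all. Of the 2760 pairs of neighbouring loci on a contig, 6 had both loci higher in the microphyll, out of 270 with at least 1 such locus, and 41 had both higher in the shoot tip, out of 487. In 19 pairs the 2 loci differed in opposite directions.

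Several assembled loci within 1 merged locus were frequent, with 4200 merged loci in the microphyll, against 3746 in the shoot tip. Of the 1372 merged loci with a listed locus under 300 bp, 241 (17.6%) were higher in the microphyll, against 243 (17.7%) in the shoot tip, and their Spearman correlation was 0.416 where that of the long-span loci was 0.784. Loci whose interval implied fewer than 10 fragments made up 2.49% of the compared loci listed in the microphyll and 2.50% of those in the shoot tip.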
